A study of Mus musculus with 24 samples.

Results

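The 10 genes described here carry fatty acids into the adipocyte and prepare them for storage, and they were taken by name from the gene column of the deposited tables: Fabp4, Fabp5, Fabp3, Cd36, Lpl, Slc27a1, Slc27a4, Acsl1, Acsl4 and Vldlr. All 10 were found among 24825 listed genes, and all 10 passed the filter on low values, an FPKM of at least 1 in at least 3 of 24 libraries. FPKM is the number of fragments counted on a gene, scaled by its length and by the depth of the library, so levels can be compared between genes as far as the lengths used are right. RNA-seq was performed on a line of stromal vascular cells from inguinal white fat of Nfia flox/flox mice, immortalised with SV40 large T antigen, so that floxed Nfia alleles and the antigen were shared by all groups. In all, 4 cell types of 3 libraries each were compared at day 0, before differentiation, and at day 7 of a thermogenic adipocyte cocktail. Cells labelled ctrl received an empty retrovirus, and cells labelled Cre received a retrovirus that encodes Cre recombinase. Cells labelled Cre + NFIA carried Cre and 3xFLAG-tagged full-length NFIA, and cells labelled Cre + NFIA Δpro#3 carried Cre and a tagged NFIA that lacks the end of its C-terminal proline-rich region. Both proteins were expressed from retroviral vectors. The cocktail was the same in all cell types. It first held the PPARγ agonist rosiglitazone, insulin, T3, dexamethasone, IBMX and indomethacin, and later rosiglitazone, insulin and T3 without the others.

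Adipocytes take most of their fatty acids from lipoproteins, whose triglyceride is cut by lipoprotein lipase, and the very low density lipoprotein receptor helps to hold these particles at the cell. Freed fatty acids enter with the help of CD36 and the FATP transporters, are carried in the cytosol by fatty acid binding proteins, and are trapped as acyl-CoA by long-chain acyl-CoA synthetases. Several of these genes are textbook targets of PPARγ, the nuclear receptor that directs adipogenesis, and NFIA is a DNA-binding factor of the nuclear factor I family that is active in brown and beige fat.

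On mm9 the genes lie on 7 chromosomes, and all 10 are protein-coding. Fabp4 lies at chr3:10204347-10208576 on the minus strand and Fabp5 at chr3:10012548-10016607 on the plus strand, with 187739 bases between them. Fabp3 lies at chr4:129985839-129992707, Cd36 at chr5:17287508-17394777 and Lpl at chr8:71404390-71431347. Slc27a1 lies at chr8:74092826-74110607, Slc27a4 at chr2:29658154-29673042 and Acsl1 at chr8:47556395-47621405. Acsl4 lies at chrX:138752536-138825078 and Vldlr at chr19:27290974-27328721. Promoters of Fabp3, Cd36, Slc27a1, Slc27a4, Acsl1, Acsl4 and Vldlr, 7 of the 10 genes, were matched by symbol in RefSeq on GRCm38.p6 and gave 11 windows of 300 bases, from 250 before to 50 after the start. Of these, 4 are shown over their 250 upstream bases because their genes followed contrasting courses at day 7. Cd36 had the largest difference on the log2(FPKM + 1) scale between Cre + NFIA Δpro#3 and Cre + NFIA. Slc27a1 passed the test as lower in Cre + NFIA than in ctrl and Fabp3 as higher, and Acsl4 ran opposite to most of the others. Capitals mark TTGGC, the core of the nuclear factor I motif, and AGGTCA, the core of the nuclear receptor motif, on either strand.
Cd36, chr5:17835897-17836146, minus strand: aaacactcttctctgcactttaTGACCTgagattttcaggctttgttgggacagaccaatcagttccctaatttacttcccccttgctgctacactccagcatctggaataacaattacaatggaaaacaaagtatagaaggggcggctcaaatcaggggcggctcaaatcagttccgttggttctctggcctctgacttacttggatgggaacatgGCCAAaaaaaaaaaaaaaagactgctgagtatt
Slc27a1, first of 3 windows, chr8:71568621-71568870, plus strand: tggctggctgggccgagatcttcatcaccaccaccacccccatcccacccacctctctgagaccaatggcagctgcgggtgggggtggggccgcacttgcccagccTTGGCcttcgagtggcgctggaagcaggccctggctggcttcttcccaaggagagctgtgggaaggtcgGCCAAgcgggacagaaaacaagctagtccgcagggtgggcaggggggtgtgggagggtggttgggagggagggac
Fabp3, chr4:130308488-130308737, plus strand: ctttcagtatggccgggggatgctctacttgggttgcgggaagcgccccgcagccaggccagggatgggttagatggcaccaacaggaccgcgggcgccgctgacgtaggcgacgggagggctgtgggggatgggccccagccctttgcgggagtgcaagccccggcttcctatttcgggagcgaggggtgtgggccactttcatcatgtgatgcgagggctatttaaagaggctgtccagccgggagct
Acsl4, chrX:142390536-142390785, minus strand: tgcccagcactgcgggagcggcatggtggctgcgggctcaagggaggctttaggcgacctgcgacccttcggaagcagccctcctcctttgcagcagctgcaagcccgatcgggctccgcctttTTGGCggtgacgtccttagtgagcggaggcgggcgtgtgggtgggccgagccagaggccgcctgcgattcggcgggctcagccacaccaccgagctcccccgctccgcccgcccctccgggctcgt
In the Cd36 window TTGGC began 33 bases before the start and AGGTCA 228 bases before it. TTGGC occurred at least once in 6 of the 11 windows, against 46.7% of 32851 RefSeq promoters. It was in at least 1 window of 5 of the 7 genes, a count that this share per promoter does not match, since some genes had several windows. It was present upstream of Acsl4, which ran opposite to most of the genes, and absent from the Fabp3 window. AGGTCA occurred in 1 of the 11 windows, against 16.3% of all promoters. The full inverted repeat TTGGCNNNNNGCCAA (0.0365% of promoters), the direct repeat AGGTCANAGGTCA (0.0396%) and TATAAA (13.6%), each searched on both strands, were in none of the 11. A match here describes letters only, and the motifs overlap in that each repeat contains its shorter core.

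Counted reads per library ranged from 7732829 to 14622189, and 3 reads were taken as the limit of detection. No source says that the 3 libraries of a group came from separate infections, so p-values measure only the spread between these libraries, which may be technical. Gene-level Nfia was 9.15 to 9.81 FPKM in ctrl and 9.49 to 10.7 FPKM in Cre at day 7, and the difference did not pass the test (adjusted p = 0.426, limma). This value spans the whole gene, of which one exon is floxed, and therefore does not check the deletion in the libraries labelled Cre. Nfia reached 83.9 to 97.1 FPKM in Cre + NFIA and 95 to 111.3 FPKM in Cre + NFIA Δpro#3, native and introduced transcripts together. Summed FPKM of 8 adipocyte markers at day 7 was 5014.4 to 5882.4 in ctrl, 1055.3 to 2195.9 in Cre, 4917.8 to 5206.0 in Cre + NFIA and 182.1 to 494.2 in Cre + NFIA Δpro#3, and all 8 were detected in every group. The sum of 6 stromal precursor markers ran the other way, at 501.6 to 552.0, 1109.4 to 1246.5, 528.3 to 597.9 and 1258.7 to 1515.4. Ly6a made up most of it, at means of 385.8, 900.3, 438.4 and 1135.7 FPKM. Unlike the other genes of that list, Dlk1 and Cd34 were higher in Cre (12.6 and 41.2) than in Cre + NFIA Δpro#3 (5.55 and 37.2). The part of these marker differences in the results below was not tested, and in bulk RNA fewer differentiated cells and less RNA per cell cannot be told apart. Summed FPKM at day 7 of 6 endothelial markers was 1.55 to 2.04 in ctrl, 2.65 to 2.78 in Cre, 1.98 to 2.62 in Cre + NFIA and 4.47 to 5.03 in Cre + NFIA Δpro#3. That of 6 macrophage markers was 6.3 to 6.87, 8.43 to 10.1, 5.9 to 7.27 and 12.9 to 14.5 in the same order. Tie1 (endothelium) and Myod1 (muscle) had 0 reads in all 24 libraries, and Ptprc and Adgre1 (macrophages) had fewer than 3. Other genes of these lists were detected, such as Kdr at means of 0.304 FPKM in day 7 ctrl and 3.5 in Cre + NFIA Δpro#3, and Cd68 at 4.08 and 5.97. The endothelial genes did not move together: in the same groups Pecam1 was at 0.32 and 0.0652 and Tek at 1.1 and 1.22. The part of these lists in the results was not tested.

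Differentiation of ctrl cells raised Fabp4, Fabp5, Cd36, Lpl, Slc27a1 and Acsl1 past 3-fold, while Acsl4 fell. Fabp4 moved furthest on the log2(FPKM + 1) scale, but by the ratio of mean FPKM Cd36 did, at 2220 against 1440 for Fabp4. Fold changes below are on the FPKM + 1 scale, which understates the change of low genes, and come with adjusted p-values from limma over 12640 genes. "Called" means an adjusted p under 0.05 and at least a 3-fold change. From day 0 to day 7, 6 of the 10 genes were called higher in ctrl, where 5.64% of all genes were, and 7 in Cre + NFIA, where 5.78% were. In Cre, 6 were called higher against 2.26% of all genes, and in Cre + NFIA Δpro#3, 4 were against 1.14%. The median log2 change of the 10 was 4.26 in ctrl, 2.78 in Cre, 4.15 in Cre + NFIA and 1.15 in Cre + NFIA Δpro#3, beside medians over all genes from -0.053 to 0.055. No gene of the 10 was called lower in any cell type. Of all 12640 genes, 1075 were called in either direction in ctrl, 345 in Cre, 1148 in Cre + NFIA and 184 in Cre + NFIA Δpro#3. Of these, 713, 286, 730 and 144 were called higher, so genes called lower were a small part of all. Cd36 was close to absent at day 0, at 0.125 to 0.332 FPKM (5 to 17 reads) in the 12 libraries, and rose in all 4 cell types. Its mean FPKM at day 7 was 2220 times its day 0 mean in ctrl, 806 times in Cre, 2860 times in Cre + NFIA and 135 times in Cre + NFIA Δpro#3. The 10 genes together took 0.0533% to 0.0683% of counted reads at day 0. At day 7 they took 2.46% to 2.76% in ctrl, 0.594% to 1.12% in Cre, 2.38% to 2.43% in Cre + NFIA and 0.166% to 0.329% in Cre + NFIA Δpro#3, and these 4 ranges did not overlap.

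**Figure D1:**
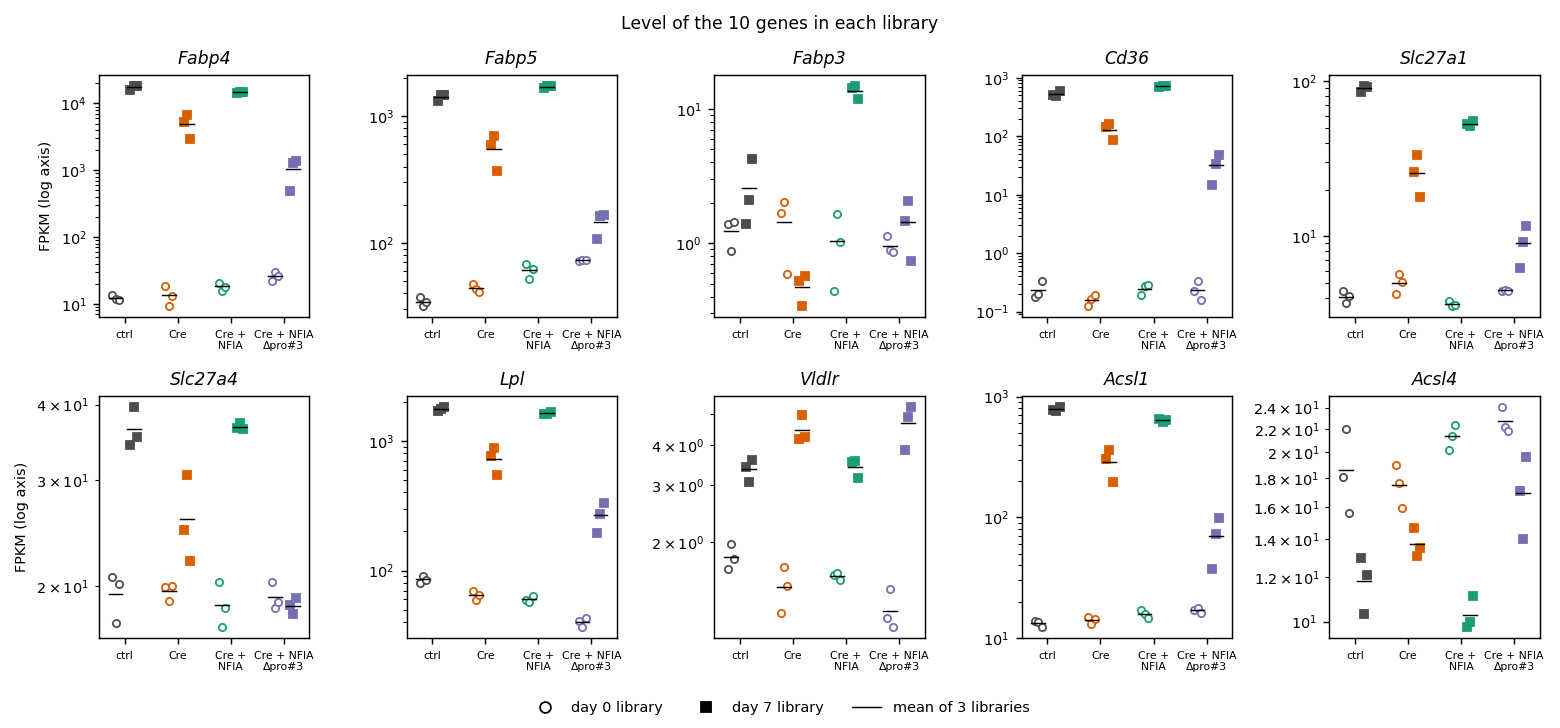
FPKM (log axis, its range set separately for each gene) in each of 24 libraries, with open circles for day 0, filled squares for day 7 and a bar at the mean of 3 libraries. Fabp4, Fabp5, Cd36, Slc27a1, Lpl and Acsl1 stood in the order ctrl and Cre + NFIA above Cre above Cre + NFIA Δpro#3 at day 7, Fabp3 was highest in Cre + NFIA, and Acsl4 was lower at day 7 than at day 0 in the means of all 4 cell types.

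Among the binding proteins, Fabp4, which encodes the adipocyte isoform, was the gene with the highest mean FPKM of all 24825 in day 7 ctrl, Cre and Cre + NFIA, and was 22nd in Cre + NFIA Δpro#3. Its level at day 7 was 15733, 18536 and 18363 FPKM in ctrl, 5365, 6611 and 2914 in Cre, 14491, 14714 and 14648.5 in Cre + NFIA, and 494, 1271 and 1362 in Cre + NFIA Δpro#3. The ranges of the 4 groups did not overlap. The difference between Cre + NFIA and ctrl still did not pass the test (log2 fold change -0.26, adjusted p = 0.671, limma). Mean FPKM in Cre was 28.3% of that in ctrl, and in Cre + NFIA Δpro#3 5.94%. Fabp4 was lower in Cre than in ctrl (log2 fold change -1.90 ± 0.36 SE, adjusted p = 0.0007), higher in Cre + NFIA than in Cre (1.64 ± 0.36, adjusted p = 0.00171), and lower in Cre + NFIA Δpro#3 than in Cre (-2.30 ± 0.36, adjusted p = 0.00138).

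Fabp5, the epidermal isoform that fat cells also make, began from a higher FPKM than Fabp4 at day 0, by the deposited gene lengths, and gained less. At day 7 it was 1311, 1468 and 1457 FPKM in ctrl, 592, 696.5 and 368 in Cre, 1654, 1742 and 1738 in Cre + NFIA, and 108, 163 and 164 in Cre + NFIA Δpro#3. Every Cre + NFIA library was above every ctrl library, yet this difference did not pass the test when the 12 day 7 libraries shared one estimate of the spread (log2 fold change 0.28, 95% interval -0.18 to 0.73, adjusted p = 0.397, limma). Fitted on the ctrl and Cre + NFIA libraries alone it passed (adjusted p = 0.0347). Against Cre, Fabp5 was higher in Cre + NFIA (1.68 ± 0.21, adjusted p = 2.12e-05) and lower in Cre + NFIA Δpro#3 (-1.90 ± 0.21, adjusted p = 0.000357).

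Fabp3, the heart and muscle isoform that brown fat also uses, followed a course of its own. It was 1.4, 2.08 and 4.21 FPKM in day 7 ctrl, 0.521, 0.341 and 0.566 in Cre, 14.3, 14.9 and 11.8 in Cre + NFIA, and 1.47, 2.07 and 0.739 in Cre + NFIA Δpro#3. All 3 Cre + NFIA libraries were above all others, ctrl and Cre + NFIA Δpro#3 overlapped, and Cre was lowest with 2 to 4 reads a library. Fabp3 was higher in Cre + NFIA than in ctrl (log2 fold change 2.11 ± 0.26, adjusted p = 0.000222, limma), the only one of the 10 called in that comparison. Against Cre it was 3.31 ± 0.26 higher on the log2 scale (adjusted p = 4.94e-07). Summed over libraries, 352 reads in Cre + NFIA against 10 in Cre gave a depth-scaled ratio of 28.0, with an exact 95% interval of 15.0 to 58.8 that covers counting error only. Cre + NFIA Δpro#3 had 33 reads, a ratio to Cre of 2.91 (1.4 to 6.63), and that difference did not pass the test (log2 fold change 0.68, 95% interval 0.12 to 1.24, adjusted p = 0.0927) except with a pseudocount of 0.1 (adjusted p = 0.0367) or without Cre + NFIA Δpro#3 replicate 3 (adjusted p = 0.0387). From day 0 to day 7 in ctrl, a change of 0.61 (adjusted p = 0.0498) did not pass under most of the alternatives tried, and was 0.295 (adjusted p = 0.332) without day 7 ctrl replicate 3. Summed FPKM of 6 skeletal muscle markers was 5.72 to 6.66 in day 7 Cre + NFIA against 2.02 to 3.91 in the other day 7 groups. Acta1 made up most of it, at a mean of 5.89 FPKM, while Ckm, Myh1 and Myod1 had fewer than 3 reads in each of these libraries.

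At the membrane, Cd36, the scavenger receptor that binds long-chain fatty acids, differed widely between cell types. It was 511, 488 and 589 FPKM in day 7 ctrl, 142, 160 and 85.4 in Cre, 688, 736 and 711 in Cre + NFIA, and 14.4, 33.6 and 48.7 in Cre + NFIA Δpro#3. No 2 groups overlapped. Between the full-length protein and Δpro#3 the log2 fold change was -4.58 ± 0.34 (adjusted p = 1.84e-07, limma), and the mean in Cre + NFIA Δpro#3 was 6.09% of that in ctrl. Cre + NFIA stood at 134.5% of ctrl, a difference that did not pass the shared-spread test (0.43, 95% interval -0.31 to 1.18, adjusted p = 0.427) but did on the libraries of both groups alone (adjusted p = 0.0111).

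Slc27a1 encodes FATP1, an insulin-responsive transporter with acyl-CoA synthetase activity. It was 85.8, 93.9 and 92.4 FPKM in day 7 ctrl, 25.9, 33.3 and 17.9 in Cre, 52.9, 51.6 and 55.8 in Cre + NFIA, and 6.28, 9.21 and 11.6 in Cre + NFIA Δpro#3. The 4 groups did not overlap, and Cre + NFIA reached 58.9% of ctrl. That shortfall passed the test (log2 fold change -0.75 ± 0.205, adjusted p = 0.0258, limma), with adjusted p from 0.0568 to 0.0807 when any 1 of the 6 libraries of ctrl and Cre + NFIA was left out and 0.000305 on those 6 libraries alone. Slc27a4, which encodes FATP4, varied far less. It was 34.3 to 39.7 FPKM in ctrl, 22.0 to 30.6 in Cre, 36.5 to 37.3 in Cre + NFIA and 18.0 to 19.1 in Cre + NFIA Δpro#3. Ctrl and Cre + NFIA overlapped (0.02, 95% interval -0.19 to 0.23), Cre lay below both, and the Δpro#3 range lay within the 17.1 to 20.7 FPKM of the 12 day 0 libraries.

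At the lipoprotein, Lpl, the lipase that frees fatty acids from triglyceride, was already at 36.6 to 91.4 FPKM at day 0. At day 7 it was 1706, 1745.5 and 1834 FPKM in ctrl, 759, 876 and 546 in Cre, 1624, 1598 and 1681 in Cre + NFIA, and 193, 275 and 332 in Cre + NFIA Δpro#3. Cre libraries held 41.3% of the ctrl mean and Cre + NFIA Δpro#3 libraries 15.1%, and no groups overlapped. The difference between Cre + NFIA and ctrl still did not pass the test (log2 fold change -0.11, adjusted p = 0.74, limma). Lpl was lower in Cre than in ctrl (log2 fold change -1.30 ± 0.19, adjusted p = 9.08e-05) and lower in Cre + NFIA Δpro#3 than in Cre (-1.45 ± 0.19, adjusted p = 0.000655). Vldlr, the lipoprotein receptor, stood at day 7 in the opposite order at a low level, though it rose from day 0 in all 4 cell types. The log2 change was 0.64 in ctrl, 1.16 in Cre, 0.78 in Cre + NFIA and 1.345 in Cre + NFIA Δpro#3 (adjusted p at most 6.85e-06, limma). Day 7 levels of Vldlr were as follows. It was 3.07 to 3.59 FPKM in day 7 ctrl and 3.17 to 3.58 in Cre + NFIA, which overlapped, and 4.19 to 4.98 in Cre and 3.86 to 5.27 in Cre + NFIA Δpro#3, which overlapped each other. Vldlr was higher in Cre than in ctrl by 0.32 ± 0.10 on the log2 scale (adjusted p = 0.0175), but not past the test without ctrl replicate 2 (adjusted p = 0.0647) or Cre replicate 2 (adjusted p = 0.0689), or with median-of-ratios (adjusted p = 0.0833) or quantile scaling (adjusted p = 0.113).

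At activation, Acsl1 and Acsl4, both long-chain acyl-CoA synthetases, went opposite ways. Acsl1, the main isoform of mature fat cells, was 767, 765.5 and 825 FPKM in day 7 ctrl, 304, 364 and 194 in Cre, 651, 615.5 and 643 in Cre + NFIA, and 37.6, 73.1 and 98.9 in Cre + NFIA Δpro#3. The groups did not overlap, and the log2 fold change was -1.50 ± 0.29 for Cre against ctrl (adjusted p = 0.000832) and -2.08 ± 0.29 for Cre + NFIA Δpro#3 against Cre (adjusted p = 0.000822). Between Cre + NFIA and ctrl, Acsl1 did not pass the shared-spread test (-0.30, adjusted p = 0.52, limma). It did on the libraries of both groups alone (adjusted p = 0.0114). Acsl4, which prefers arachidonic acid, was 13, 10.3 and 12.1 FPKM in day 7 ctrl, 14.7, 13.1 and 13.5 in Cre, 9.78, 9.97 and 11.1 in Cre + NFIA, and 17.1, 14 and 19.6 in Cre + NFIA Δpro#3. Cre + NFIA overlapped only with ctrl, and Cre only with Cre + NFIA Δpro#3. From day 0 Acsl4 fell in ctrl (-0.605 ± 0.11 on the log2 scale, adjusted p = 6.34e-05), in Cre + NFIA (-0.99 ± 0.11, adjusted p = 9.94e-08) and in Cre + NFIA Δpro#3 (-0.42 ± 0.11, adjusted p = 0.00528). In Cre it also fell (-0.32 ± 0.11, adjusted p = 0.0208), which did not hold without Cre day 0 replicate 1 (adjusted p = 0.0881) or without day 7 replicate 2 or 3 (0.069 and 0.052). At day 7 it was higher in Cre + NFIA Δpro#3 than in Cre + NFIA (0.66 ± 0.11, adjusted p = 0.000209).

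**Figure D2:**
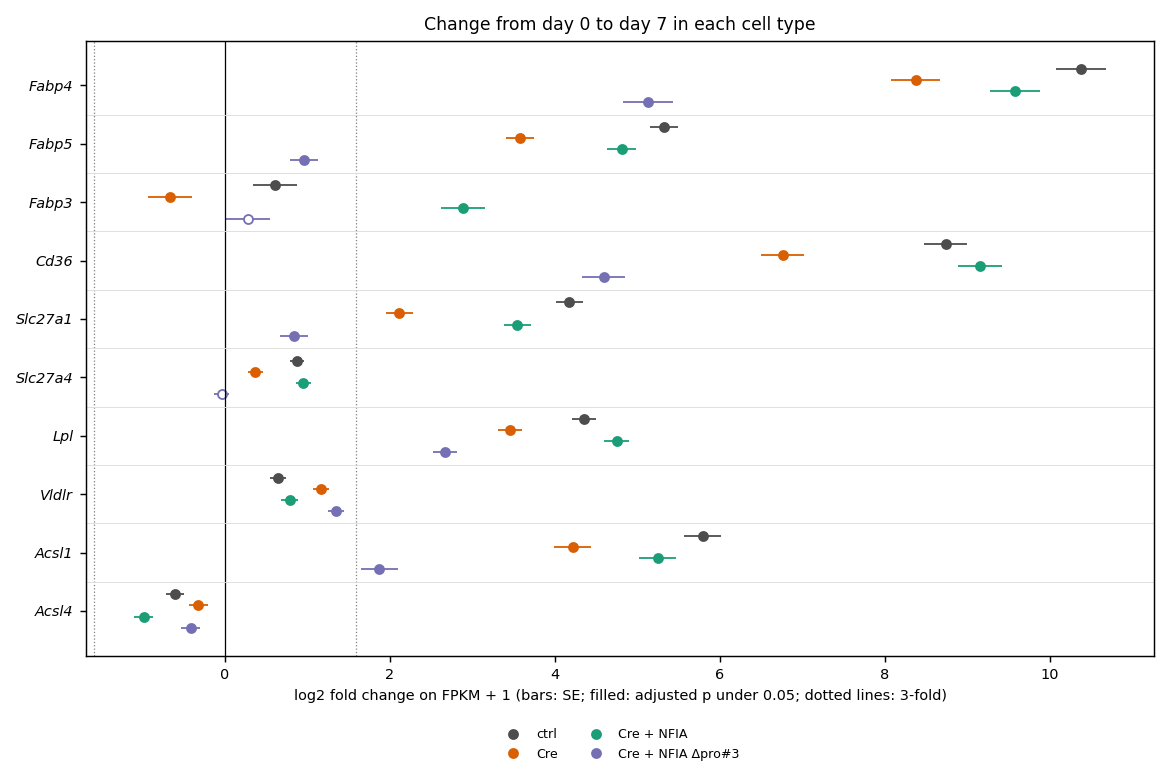
log2 fold change on FPKM + 1 (horizontal axis, with SE bars) from day 0 to day 7 for the 10 genes in each of 4 cell types, where filled points passed an adjusted p of 0.05 and dotted lines mark 3-fold. Fabp4 moved furthest in ctrl at 10.38, Cre + NFIA Δpro#3 points lay nearest 0 for Fabp4, Fabp5, Cd36, Slc27a1, Lpl and Acsl1, and all 4 Acsl4 points were below 0.

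The 5 day 7 comparisons gave these counts over the 10 genes. Between Cre and ctrl, 8 passed lower (Fabp4, Fabp5, Fabp3, Cd36, Lpl, Slc27a1, Slc27a4 and Acsl1) and 1 higher (Vldlr), where 58.8% of all genes passed in either direction. Fabp4, Cd36 and Slc27a1 were called lower, against 1.27% of all genes. Without Cre replicate 2, 5 were called, and without Cre replicate 3, 2 were. Between Cre + NFIA and Cre, 8 passed higher and 2 lower (Acsl4 and Vldlr), where 63.0% of all genes passed. Vldlr did not pass with median-of-ratios (adjusted p = 0.0801) or quantile scaling (0.0795), without Cre replicate 2 (0.0897) or without Cre + NFIA replicate 3 (0.0825). Fabp4, Fabp5, Fabp3 and Cd36 were called higher, against 2.13% of all genes. Without Cre replicate 3, the values of Fabp4 (1.295) and Fabp5 (1.41) came under the 3-fold line and 2 were called. Between Cre + NFIA Δpro#3 and Cre, 7 passed lower and 0 higher, where 17.7% of all genes passed, and Fabp4, Fabp5, Cd36 and Acsl1 were called lower, against 0.593%. Slc27a4 did not pass there on the libraries of these groups alone (adjusted p = 0.0553). Between Cre + NFIA Δpro#3 and Cre + NFIA, 8 passed lower and 2 higher (Acsl4 and Vldlr), where 69.2% passed, and 7 were called lower, all of those 8 but Slc27a4, against 4.60%. Between Cre + NFIA and ctrl, Fabp3 passed higher and Slc27a1 lower, where 18.0% passed, and Fabp3 alone was called higher, against 0.245%. The median log2 fold change of the 10 in these 5 comparisons was -1.35, 1.19, -1.43, -2.64 and -0.05, beside 0.091, -0.057, 0.018, 0.097 and 0.02 over all genes. The comparisons share libraries and are not independent of each other. Pparg, measured in the same libraries, was 50.1 to 54.8 FPKM in day 7 ctrl, 16.3 to 27.0 in Cre, 56.5 to 63.2 in Cre + NFIA and 6.38 to 11.4 in Cre + NFIA Δpro#3, and its part in the levels of the 10 was not tested.

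**Figure D3:**
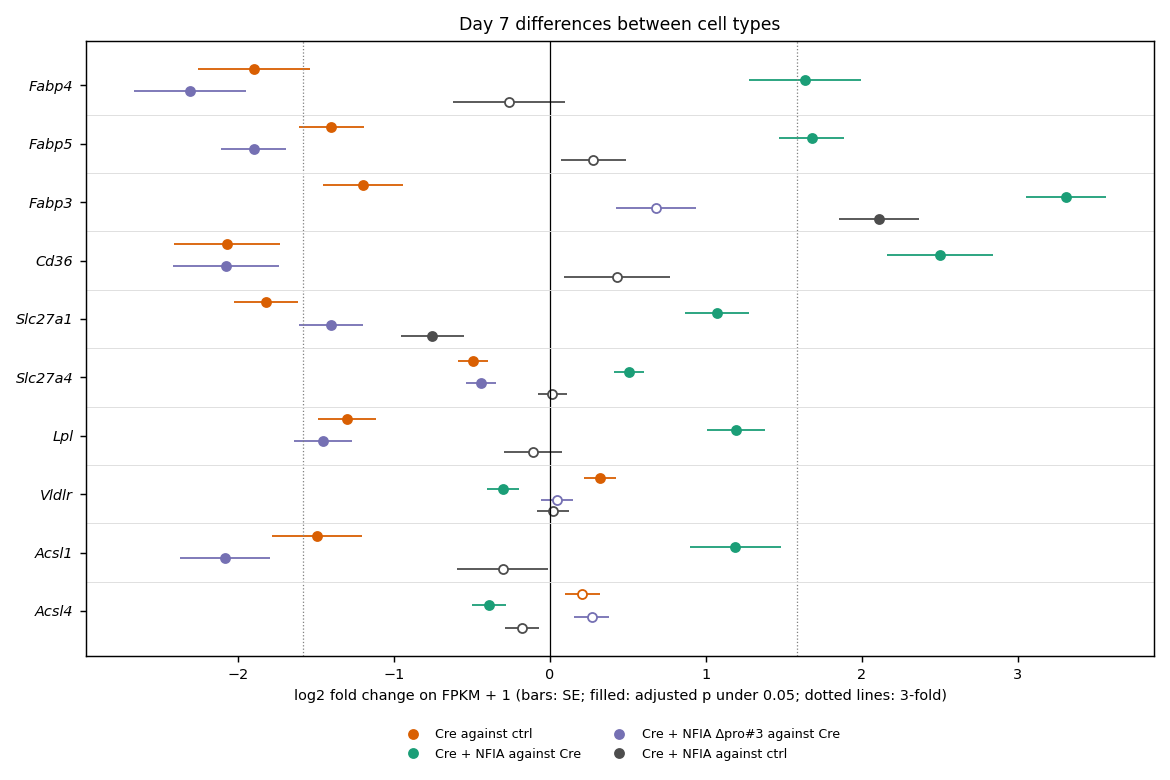
log2 fold change on FPKM + 1 at day 7 (horizontal axis, with SE bars) for the 10 genes in 4 comparisons, where filled points passed an adjusted p of 0.05 and dotted lines mark 3-fold. Cre against ctrl and Cre + NFIA Δpro#3 against Cre lay left of 0 for Fabp4, Fabp5, Cd36, Slc27a1, Slc27a4, Lpl and Acsl1, Cre + NFIA against Cre lay right of 0 for these and for Fabp3 (3.31), and Cre + NFIA against ctrl had filled points only for Fabp3 and Slc27a1.

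Whether the change over time itself differed between cell types was tested as an interaction. For Cre against ctrl it was called lower for Fabp4, Fabp5, Cd36 and Slc27a1, 4 of the 10, against 1.27% of all genes. For Cre + NFIA against Cre it was called higher for Fabp3 and Cd36, 2 of the 10, against 1.70%. For Cre + NFIA Δpro#3 against Cre it was called lower for Fabp4, Fabp5, Cd36 and Acsl1, against 0.736%. Against Cre + NFIA it was called lower for 7, Slc27a4, Acsl4 and Vldlr being the others, where 4.55% of all genes were. Cd36 had the largest of these values, -4.57 ± 0.37 (adjusted p = 1.69e-09). For Cd36, whose day 0 values rest on 5 to 17 reads, voom on the recovered reads gave interactions of -1.57 (Cre against ctrl, adjusted p = 0.477), 1.93 (Cre + NFIA against Cre, adjusted p = 0.387) and -2.59 (Cre + NFIA Δpro#3 against Cre, adjusted p = 0.347), which did not pass, while that of Cre + NFIA Δpro#3 against Cre + NFIA passed.

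Before differentiation none of the 10 genes was called in the 5 day 0 comparisons. Few of all 12640 genes were, at 3, 68, 18, 24 and 55 in the order below, so this does not set the 10 apart. At an adjusted p under 0.05 alone, 1 differed between Cre and ctrl (3.33% of all genes did), 2 between Cre + NFIA and Cre (27.6%) and 5 between Cre + NFIA Δpro#3 and Cre (18.3%). Between the Δpro#3 and full-length forms 1 differed (10.1%), and between Cre + NFIA and ctrl 3 did (33.1%). Fabp4 and Fabp5, lowest in Cre + NFIA Δpro#3 at day 7, had their highest day 0 levels there. Against day 0 Cre + NFIA neither passed the test, at 0.50 for Fabp4 (adjusted p = 0.156, limma) and 0.27 for Fabp5 (adjusted p = 0.112). Fabp5 was 31.7 to 37.6 FPKM in ctrl, 40.6 to 47.5 in Cre, 51.5 to 67.6 in Cre + NFIA and 72.0 to 73.1 in Cre + NFIA Δpro#3, with no overlap. It was higher in Cre + NFIA Δpro#3 than in Cre by 0.72 ± 0.10 on the log2 scale (adjusted p = 0.000641), and higher in Cre + NFIA than in Cre by 0.45 (adjusted p = 0.00524, or 0.051 with all 24 libraries in the fit) and than in ctrl by 0.79 ± 0.10 (adjusted p = 0.000136). Fabp4 was 22.3, 30.4 and 26.3 FPKM in day 0 Cre + NFIA Δpro#3 against 18.4, 9.3 and 13.2 in Cre, a rise of 0.94 ± 0.20 (adjusted p = 0.00875), which came to adjusted p = 0.0509 on the libraries of these groups alone. Lpl was highest in ctrl and lowest in Cre + NFIA Δpro#3 already. It was 80.3 to 91.4 FPKM in ctrl, 58.9 to 69.2 in Cre, 57.3 to 63.5 in Cre + NFIA and 36.6 to 43.1 in Cre + NFIA Δpro#3, of which Cre and Cre + NFIA overlapped. Lpl was lower in Cre + NFIA Δpro#3 than in Cre (-0.66 ± 0.08, adjusted p = 0.000305) and lower in Cre than in ctrl (-0.41 ± 0.08, adjusted p = 0.0213). Against Cre + NFIA the value in Cre + NFIA Δpro#3 was -0.56 (adjusted p = 0.000747), and in Cre + NFIA against ctrl it was -0.505 (adjusted p = 0.000622). The difference between Cre and ctrl did not pass without ctrl replicate 2 or 3 or Cre replicate 2 or 3 (adjusted p from 0.0504 to 0.0679), nor on the libraries of these groups alone (0.144). The smaller differences were in Acsl1 and Acsl4, higher in Cre + NFIA Δpro#3 than in Cre by 0.26 and 0.36 (adjusted p = 0.0289 and 0.0374), Acsl1 in Cre + NFIA against ctrl (0.24, adjusted p = 0.0262), and Slc27a1, at -0.36 in Cre + NFIA against Cre (adjusted p = 0.0134, or 0.0571 on these groups alone). Those of Acsl1 and Acsl4 were lost when single libraries were left out, with adjusted p up to 0.126 without Cre + NFIA Δpro#3 replicate 1 for Acsl4.

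Members of a family were set against each other within a library as ratios of FPKM. The lengths in the deposited files differ from the GENCODE exon union on mm9, at 953 against 3567 bases for Fabp5, 4093 against 9449 for Acsl1 and 3822 against 2795 for Slc27a1. For some of the ratios, which gene of a pair is higher can therefore depend on the length used. The comparison of 1 ratio between libraries does not. With the deposited lengths, Fabp4 was 0.215 to 0.416 times Fabp5 at day 0, and at day 7 12 to 12.6 times in ctrl, 7.92 to 9.49 times in Cre, 8.43 to 8.76 times in Cre + NFIA and 4.58 to 8.29 times in Cre + NFIA Δpro#3. At day 7 this ratio was highest in ctrl, and the ratios of Cre and Cre + NFIA overlapped. Acsl1 was 0.617 to 0.906 times Acsl4 in the 12 day 0 libraries and 59.1 to 74.0 times in day 7 ctrl. In Cre the ratio was 14.4 to 27.8, in Cre + NFIA 57.9 to 66.6 and in Cre + NFIA Δpro#3 2.19 to 5.23. The ctrl and Cre + NFIA ranges overlapped, and the other day 7 ranges stood apart from these and from each other. Slc27a1 was below Slc27a4 in all day 0 libraries by these lengths, and at day 7 stood at 2.37 to 2.62 times in ctrl and 1.38 to 1.53 times in Cre + NFIA. It was 0.813 to 1.09 times Slc27a4 in Cre, and in Cre + NFIA Δpro#3 it remained below, at 0.337 to 0.609.

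**Figure D4:**
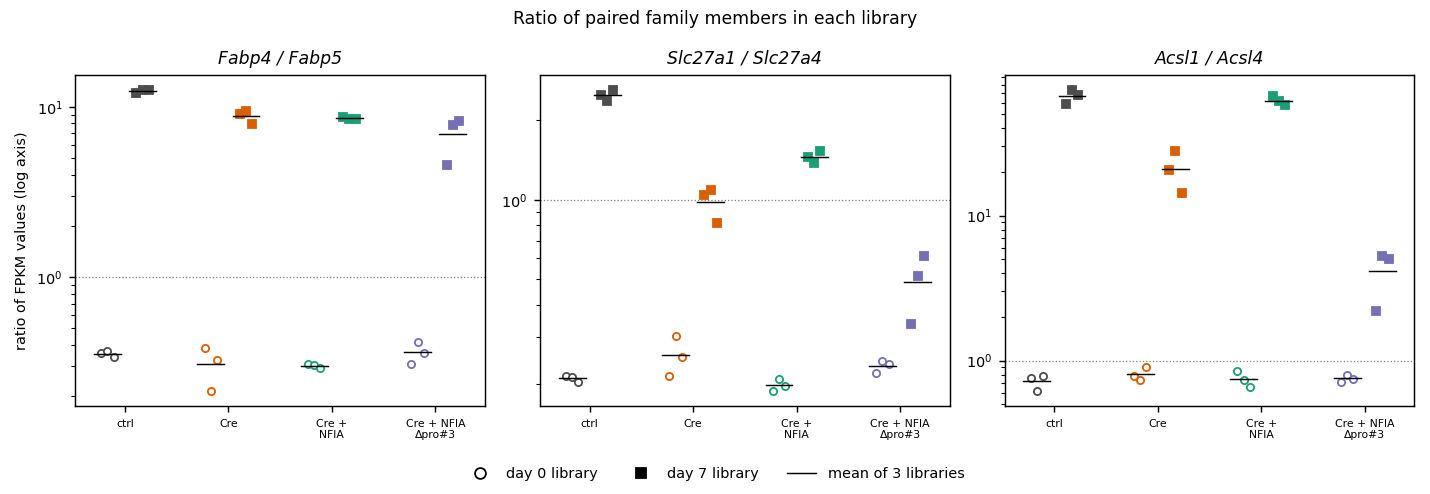
Ratio of FPKM values (log axis, range set separately for each panel) of Fabp4 to Fabp5, Slc27a1 to Slc27a4 and Acsl1 to Acsl4 in each of 24 libraries, with open circles for day 0, filled squares for day 7, bars at means of 3 libraries and a dotted line at 1. With the deposited lengths all day 0 ratios lay under 1, and day 7 Cre + NFIA Δpro#3 had the lowest mean of the day 7 groups in each panel, with an Acsl1 to Acsl4 ratio of 2.19 to 5.23 against 59.1 to 74.0 in ctrl.

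Over the 8 group means of log2(FPKM + 1), Fabp4, Fabp5, Cd36, Lpl, Slc27a1 and Acsl1 had Pearson correlations of 0.95 to 0.99 with each other, while Acsl4 was at -0.90 to -0.96 with these 6. Fabp3 was at 0.52 to 0.61 with them, and Vldlr at 0.68 to 0.85. These are descriptions over 8 points that share libraries and the contrast between days. Of 8766 other genes with a mean of at least 5 FPKM, Gpd1 was most like Cd36 (0.9995), with means of 1824.1 FPKM in day 7 ctrl and 62.1 in Cre + NFIA Δpro#3, followed by Cdo1 (0.999). Fabp4 was most like Plin1 and Pisd (0.9981 each), Fabp5 like Pla2g12a (0.9987) and Cox14 (0.9972), and Lpl like Col15a1 and Gpcpd1 (0.9981 each). The correlation takes no account of the size of a change. Pisd means ran from 13.3 to 20.7 FPKM, and those of Plin1 from 0.145 to 472.5. Slc27a1 was most like Ehhadh (0.9991) and Rab3ip (0.9973), Slc27a4 like Pex6 (0.9974) and Acaca (0.9963), and Acsl1 like Kcnk3 (0.999) and Gpat3 (0.9983). For Fabp3 the nearest were Acsf2 (0.9663) and Wdr91 (0.9518). Acsf2, an acyl-CoA synthetase of mitochondria, had day 7 means of 40.7 FPKM in Cre + NFIA, 20.9 in ctrl, 14 in Cre and 13.7 in Cre + NFIA Δpro#3. For Acsl4 the nearest were the ribosomal protein genes Rpl10a (0.996) and Rplp0 (0.9906), and for Vldlr the clock gene Arntl (0.99) and Rlim (0.985).

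Other genes of the route came from a list of 61 binding, uptake, activation, lipase partner and lipoprotein receptor genes, of which 41 passed the filter. Between Cre and ctrl at day 7, 13 of the 41 passed higher and 21 lower, with 5 called lower, beside 58.8% of all genes that passed and 1.27% called lower. Between Cre + NFIA and Cre, 19 passed higher and 13 lower, with 9 called higher and 1 lower, beside 63.0% passed. Of all 12640 genes, 459 were called there in either direction, 269 of them (2.13% of all) higher. Between Cre + NFIA Δpro#3 and Cre, 7 passed higher and 15 lower with 2 called lower, beside 17.7% passed and 0.593% called lower. Between Cre + NFIA Δpro#3 and Cre + NFIA, 14 passed higher and 22 lower, with 3 called higher and 13 lower, beside 69.2% passed. Here 875 of all 12640 genes were called in either direction, 581 of them (4.60% of all) lower. Between Cre + NFIA and ctrl, 5 passed higher and 9 lower, beside 18.0% passed. Medians of the 41 were -0.27, 0.11, -0.12, -0.30 and 0.01 in these comparisons. Angptl8, a feeding-induced regulator of lipoprotein lipase, was 24.9, 40.0 and 31.5 FPKM in day 7 ctrl, 2.31, 5.94 and 1.67 in Cre, 31.1, 31.4 and 33.0 in Cre + NFIA, and 0.396, 0.765 and 1.28 (4 to 14 reads) in Cre + NFIA Δpro#3. It was lower in Cre than in ctrl by a log2 fold change of -3.04 ± 0.30 (adjusted p = 5.55e-06). Angptl4, which inhibits the lipase, was 323.9 to 399.8 FPKM in ctrl, 100.2 to 160.6 in Cre, 493 to 518 in Cre + NFIA and 37.3 to 52.0 in Cre + NFIA Δpro#3, so that the inhibitor and its target Lpl stood low in the same groups. Angptl4 was higher in Cre + NFIA than in Cre (1.96 ± 0.16, adjusted p = 7.25e-07). Dbi, the acyl-CoA binding protein, was 278.6 to 457.8 FPKM in Cre and 1622.3 to 1666.5 in Cre + NFIA, a log2 fold change of 2.15 ± 0.15 (adjusted p = 1.79e-07). Scp2, a lipid carrier of peroxisomes, was lower in Cre than in ctrl (-1.66 ± 0.16, adjusted p = 4.62e-06). Acss2, which makes acetyl-CoA from acetate, differed by -3.63 ± 0.17 between the Δpro#3 and full-length forms (adjusted p = 7.8e-09). Sort1, a sorting receptor that binds lipoprotein lipase, differed by -3.625 ± 0.24 (adjusted p = 7e-08) in that comparison, and Apoc1, an apolipoprotein, by -3.565 ± 0.30 (adjusted p = 5.52e-07).

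Replicate 3 of day 7 Cre was the lowest of its group for 7 of the 10 genes, and its adipocyte marker sum of 1055.3 was the lowest of that group. Replicate 1 of day 7 Cre + NFIA Δpro#3 was lowest for 7 of the 10, with an adipocyte marker sum of 182.1, also the lowest of its group. With both libraries left out, chosen after the values were seen, 2, 2, 4, 7 and 1 of the 10 were called in the 5 day 7 comparisons in the order given above.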

How the data were processed

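Poly(A) RNA of 24 libraries, 4 cell types by 2 days by 3 replicates, was sequenced with a stranded kit. The authors aligned reads to mm9 with STAR 2.5.3a, kept unique alignments, counted reads on the matched strand per gene and deposited FPKM values without counts. Multiplied by gene length, FPKM of each library gave whole reads for 100% of genes (tolerance 0.01 read), from which totals of 7732829 to 14622189 reads were taken. Intervals on reads cover counting error only. Groups followed the sample titles. log2(FPKM + 1) of 12640 genes (at least 1 FPKM in at least 3 libraries) was fitted by limma 3.58.1 in R 4.3.3, its trend option on. For a single day the 12 libraries of that day were fitted, and for changes between days and interactions all 24 were. P-values were Benjamini-Hochberg adjusted over all genes. The fit was tested on simulated data. Python 3.11.15 was used for levels and figures.

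All 10 genes are named. From the list of 61 genes of the route, up to 4 called with the largest change per day 7 comparison are named, and 2 most-alike genes per member, with Pparg and Nfia. The genes, lists and tests were chosen with earlier results of these data known. Alternatives were other pseudocounts, filters, scalings, sets of libraries, call rules, voom on recovered reads, a replicate block and leaving out each library. Promoter letters came from RefSeq (GRCm38.p6), positions from GENCODE on mm9, and no coordinate was converted.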

Additional observations from a re-analysis of the deposited data

Results flagged for a closer look

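The change from day 0 to day 7 differed between cell types, by the interaction term of limma over all genes, with an adjusted p under 0.05 and at least a 3-fold difference, for 17 combinations of gene and comparison. The share of all genes past both limits in the same direction was 1.27%, 1.70%, 0.736% and 4.55% in the 4 comparisons in the order below. Values are differences of log2 changes, with n = 3 libraries in each group, and comparisons share libraries. For Cre against ctrl the difference was -2.00 for Fabp4, -1.74 for Fabp5, -1.98 for Cd36 and -2.06 for Slc27a1. For Cre + NFIA against Cre it was 3.56 for Fabp3 and 2.40 for Cd36. For Cre + NFIA Δpro#3 against Cre it was -3.24 for Fabp4, -2.62 for Fabp5, -2.17 for Cd36 and -2.35 for Acsl1. For Cre + NFIA Δpro#3 against Cre + NFIA it was -4.45 for Fabp4, -3.85 for Fabp5, -2.61 for Fabp3, -4.57 for Cd36, -2.08 for Lpl, -2.71 for Slc27a1 and -3.38 for Acsl1. With voom on recovered reads, those of Cd36 did not pass in the first 3 comparisons (adjusted p = 0.477, 0.387 and 0.347). Adjusted p-values from limma lay between 5.66e-11 and 0.00063. The adipocyte marker sum was also lower at day 7 in Cre and lowest in Cre + NFIA Δpro#3, and its part was not tested.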

How the results depend on the processing

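Of 18 counts of called genes, recomputed 371 times, 344 values stayed within 1.5 times. Dropping the fold limit gave 9 for Cre against ctrl at day 7, 10 for Cre + NFIA against Cre, 7 for Cre + NFIA Δpro#3 against Cre and 2 for Cre + NFIA against ctrl. It gave 1, 2, 5, 1 and 3 in the day 0 comparisons, 10, 10 and 8 for the change over time in ctrl, Cre and Cre + NFIA Δpro#3, and 9, 10 and 7 for the first 3 interactions. A 2-fold limit gave 7 for Cre against ctrl, 7 for Cre + NFIA against Cre at day 7 and 7 for that interaction. Leaving out single libraries gave 2 to 5 for Cre against ctrl and 2 to 4 for Cre + NFIA against Cre. Quantile normalization gave 2 for Cre + NFIA against Cre at day 7 and 2 for the interaction of Cre against ctrl. It gives the top gene of every library the same value, and Fabp4 had the highest mean in day 7 ctrl, Cre and Cre + NFIA: its differences became -0.27 (Cre against ctrl, adjusted p = 0.519), 0.27 (Cre + NFIA against Cre, adjusted p = 0.506) and, reversed, -0.133 for the interaction of Cre + NFIA against Cre. Called genes between Cre + NFIA and ctrl were 0 with a pseudocount of 5 and 0 with a mean of at least 5 FPKM, a filter that Fabp3 did not pass. The interaction of Cre + NFIA against Cre, called for Fabp3 and Cd36 in the main fit, gave 1 with that filter. It gave 1 with voom, where Cd36 did not pass (adjusted p = 0.387). Without the lowest library of Cre and of Cre + NFIA Δpro#3 at day 7, Cre + NFIA against Cre gave 2.

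Of 2555 recomputed gene values, 2446 kept direction and side of the threshold, 93 lost it, 8 gained it and 8 reversed. Besides Fabp4 above, the reversals were near 0 and never past the test: Vldlr between Cre + NFIA Δpro#3 and Cre without Δpro#3 replicate 3 (-0.029, in a range up to 0.156 over single libraries left out); Slc27a4 between Cre + NFIA and ctrl with median-of-ratios factors (-0.011) and without ctrl replicate 1 (-0.024) or 3 (-0.004, range up to 0.078); and Vldlr in that comparison with quantile normalization (-0.018) and without ctrl replicate 2 (-0.026) or Cre + NFIA replicate 2 (-0.002, range up to 0.066). Acsl1 between Cre + NFIA and ctrl passed on the libraries of both groups alone (-0.30, adjusted p = 0.0114). Scalings moved the median of all genes by over 0.1 in the day 7 comparisons of Cre against ctrl (-0.112) and of Δpro#3 against full-length NFIA (-0.104), in 3 of the interactions (-0.114, 0.11 and -0.115) and over time in Cre (-0.102). Libraries with the same replicate number did not deviate together (84 correlations from -0.306 to 0.218, with 0 of 28 group pairs over 0.1 throughout). With a replicate block the 18 counts stayed within 1.5 times, such as 7 for Cre + NFIA Δpro#3 against Cre + NFIA at day 7, and Fabp3 lost its change over time in ctrl (adjusted p = 0.0586) and Cre (adjusted p = 0.0515). Low read numbers limit what can be said of Fabp3 in Cre at day 7 and of Cd36 at day 0.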

Other observations

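Rplp0, a ribosomal protein gene common as a reference in quantitative PCR, was among the 2 genes most like Acsl4. Its mean was 1316.8 FPKM at day 0 and 979.8 at day 7 in ctrl, 1387.7 and 1097.5 in Cre, 1579.0 and 878.1 in Cre + NFIA, and 1582.3 and 1261.2 in Cre + NFIA Δpro#3. Rpl10a had means of 368.5 and 290.1 FPKM in ctrl and 408.9 and 277.8 in Cre + NFIA on the same days. FPKM is relative to all counted reads of a library, and the cause of these differences was not tested.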
